A study of Mus musculus with 8 samples.

Results

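Lipid droplets are the organelles in which hepatocytes store triglyceride. A droplet buds from the endoplasmic reticulum with the help of FIT2, is covered by perilipins, grows or fuses under CIDE proteins, and is emptied by lipases, of which adipose triglyceride lipase (ATGL) takes the first step. In a fasted liver, fatty acids arriving from adipose tissue are stored in such droplets and released from them for oxidation or for export in lipoproteins, and several droplet genes are known targets of the fatty acid receptor PPAR-alpha. The 10 genes described here were chosen by name from the table of 24451 genes and all 10 were found. They comprise 4 perilipin genes (Plin2, Plin3, Plin4 and Plin5), the 3 CIDE genes (Cidea, Cideb and Cidec), Fitm2, which encodes FIT2, Pnpla2, which encodes ATGL, and G0s2, which encodes an inhibitor of ATGL.

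RNA was taken from the left liver lobe of 4 Brap LKO mice (Brap fl/fl with Alb-Cre) and 4 Brap F/F control mice (Brap fl/fl without Cre), all C57BL/6, 18 wk old and fasted for 6 h. Both groups thus carried the floxed alleles, which let Cre remove part of the gene for the ubiquitin ligase BRAP, and only the Brap LKO mice carried Cre, driven by the albumin promoter and so aimed at hepatocytes. The study used male mice. Controls with Cre and unfloxed Brap were not analysed here.

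Values are normalized counts, the reads counted on a gene divided by a size factor for each liver, from 26280884 to 33313914 reads per liver. The 15352 genes whose mean reached at least 5 were compared between groups with limma on log2(normalized count + 1), with Benjamini-Hochberg adjustment of the p-values over all of them. Fold changes are given as Brap LKO against Brap F/F on that scale and are too small for genes with few reads, and every p-value and interval rests on how much livers of one group vary. Livers are numbered by replicate within their group. The counts of the targeted gene, Brap, lay between 3641 and 4203 in the Brap LKO livers and between 3994 and 4410 in the Brap F/F livers, and since Cre removes only part of the transcript, they did not check the labels. In bulk liver, fewer cells of a type and less RNA per cell cannot be told apart.

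No lipid droplet gene passed the test for a difference between Brap LKO and Brap F/F livers. All 10 were tested, and 0 had an adjusted p under 0.05 from limma, where 0.769% of all genes tested did. At an unadjusted p under 0.05 the number was also 0 (15.8% of all genes tested), and in 0 of the 10 did the livers of one group all lie above those of the other (9.87% of all genes tested). It was 0 past the adjusted threshold with edgeR and with DESeq2 on the recovered reads as well, though 2 of the 10 had an unadjusted p under 0.05 with each tool (15.6% of all genes tested with edgeR and 15.9% with DESeq2). The fitted fold change was below 0 in 9 of the 10 genes and above 0 in Cidea, with a median of -0.29 on the log2 scale, while 52.0% of all genes tested were fitted below 0 with a median of -0.01. These 10 values come from the same 8 livers, so they do not count as separate evidence of a direction. In 9 of the 10 genes, all but Cideb, the SD of log2(normalized count + 1) among the Brap F/F livers was larger than the fitted difference between the groups. The share of all genes tested for which this held was not counted, so it does not set these genes apart.

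**Figure D1:**
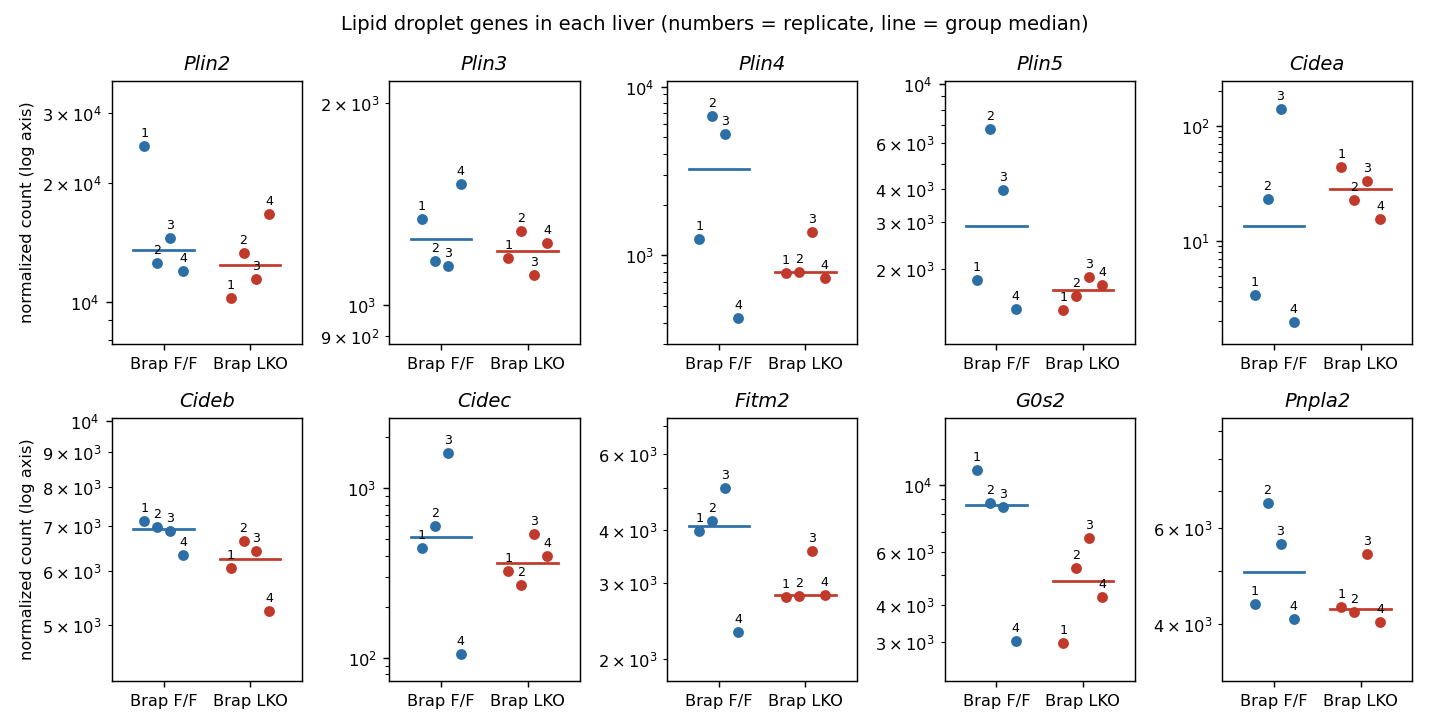
Normalized count (log axis, each panel with its own range) of the 10 lipid droplet genes in each of the 4 Brap F/F livers (blue) and the 4 Brap LKO livers (red), with the replicate number at each point and a line at the group median. The groups overlap in every panel. Brap F/F replicates 2 and 3 stand high and replicate 4 low in Plin4 and Plin5, and in Cidec replicate 3 stands high and replicate 4 low.

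Plin2, the coat protein that covers most droplets in hepatocytes, had the most reads of the 10. Normalized counts were 10219, 13331, 11449 and 16739 in Brap LKO livers 1 to 4, and 24743, 12524, 14517 and 12007 in Brap F/F livers 1 to 4. Brap F/F replicate 1 stood above all other livers, and the remaining Brap F/F livers lay within the range of the Brap LKO livers. Its log2 fold change came to -0.26 in limma (95% confidence interval -0.79 to 0.27, adjusted p = 0.611), and a two-sided exact permutation test gave p = 0.457. Without Brap F/F replicate 1 the fitted value was -0.029 (adjusted p = 0.948 from limma), and without Brap LKO replicates 1 and 4 in turn it was -0.16 and -0.39. For every gene that test runs over the 70 arrangements of 4 livers against 4, and the smallest p it can give is 0.0286. Plin2 lies on the minus strand of chromosome 4 in mm10, from 86648386 to 86670060.

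Plin3 encodes a perilipin that sits in the cytosol and moves to newly formed droplets. It varied little between livers, from 1111 to 1288 normalized counts in the Brap LKO group and from 1146 to 1517 in the Brap F/F group. Brap F/F replicate 4, which was the lowest of its group for the other 9 genes, was the highest for this one. In limma its log2 fold change was -0.10 with a 95% confidence interval of -0.32 to 0.13 (adjusted p = 0.653), a narrow interval beside those of most of the 10.

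Plin4, a perilipin found mainly in adipose tissue and muscle that binds small droplets through a long repeated helix, had the fitted value farthest below 0. Normalized counts were 783, 801, 1384 and 736 in Brap LKO livers 1 to 4, and 1244, 6715, 5267 and 427 in Brap F/F livers 1 to 4. Brap F/F replicates 2 and 3 stood far above every Brap LKO liver, while replicate 4 stood below every one of them. The fitted log2 fold change was -1.22 (95% confidence interval -2.94 to 0.50, adjusted p = 0.463 from limma), with an exact permutation p of 0.343. Group means were 926 ± 306 (SD, n = 4) for Brap LKO and 3413 ± 3053 (SD, n = 4) for Brap F/F. From the lowest to the highest liver the range was 15.7-fold among Brap F/F livers and 1.88-fold among Brap LKO livers.

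Plin5, the perilipin of oxidative tissues that links droplets to mitochondria and binds ATGL, showed the same order among the Brap F/F livers. Normalized counts were 1398, 1572, 1865 and 1733 in Brap LKO livers 1 to 4, against 1817, 6798, 3971 and 1411 in Brap F/F livers 1 to 4. Again replicates 2 and 3 of the Brap F/F group were high, and the other Brap F/F livers lay within the range of the Brap LKO livers. In limma the log2 fold change came to -0.82 (95% confidence interval -1.78 to 0.13, adjusted p = 0.380), and the exact permutation p was 0.257. The range was 4.82-fold among Brap F/F livers and 1.33-fold among Brap LKO livers.

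Plin4 and Plin5 are neighbours. On chromosome 17 of mm10, Plin4 spans 56100591 to 56109803 and Plin5 56111601 to 56117596, both on the minus strand, with 1797 bases between them in the GENCODE annotation. Plin3 lies on the same strand 159879 bases beyond Plin5 (56277476 to 56292873). The stretches before the start sites of Plin4 and Plin5 are shown because this pair had the same order of Brap F/F livers, and those of Cidec and Plin2 for comparison. They come from RefSeq (GRCm38.p6, minus strand) and leave out annotated exon bases, and the lines give Plin4 at chr17:56109804-56110032, Plin5 at chr17:56117597-56117798, Cidec at chr6:113435761-113436010 and Plin2 at chr4:86670061-86670309. Capitals mark TATAA on the gene's strand in Plin4, AGGTCA (a nuclear receptor half-site) in Plin5 and its reverse complement TGACCT in Plin2, and the reverse complement of the TEAD core GGAATG in Cidec.
Plin4: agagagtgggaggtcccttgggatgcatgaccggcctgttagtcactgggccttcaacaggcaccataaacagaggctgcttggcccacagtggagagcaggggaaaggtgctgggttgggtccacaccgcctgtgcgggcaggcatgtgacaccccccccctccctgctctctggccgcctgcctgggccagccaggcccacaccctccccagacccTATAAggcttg
Plin5: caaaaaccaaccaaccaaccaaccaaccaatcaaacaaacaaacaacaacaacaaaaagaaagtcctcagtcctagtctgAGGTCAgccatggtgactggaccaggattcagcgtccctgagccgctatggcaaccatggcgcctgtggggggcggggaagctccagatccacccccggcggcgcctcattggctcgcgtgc
Cidec: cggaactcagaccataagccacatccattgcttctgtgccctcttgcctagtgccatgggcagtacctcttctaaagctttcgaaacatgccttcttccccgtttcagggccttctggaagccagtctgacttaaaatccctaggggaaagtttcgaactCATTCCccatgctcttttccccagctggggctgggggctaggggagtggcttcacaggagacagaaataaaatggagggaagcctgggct
Plin2: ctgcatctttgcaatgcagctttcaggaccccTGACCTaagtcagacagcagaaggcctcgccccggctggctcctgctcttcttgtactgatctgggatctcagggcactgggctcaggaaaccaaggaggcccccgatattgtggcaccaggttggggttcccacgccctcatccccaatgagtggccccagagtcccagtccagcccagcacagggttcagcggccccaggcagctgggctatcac

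The 250 bases before the start were searched in all 32851 promoters of the RefSeq table, which holds 11 promoters of 9 of the 10 genes and not that of Cidea. TATAA on the gene's strand was found in 16.0% of all promoters and in 3 of the 11 (Cideb, Plin4 and Plin5), and that of Plin4 begins 32 bases before the start, while that of Plin5 is not in the stretch shown. AGGTCA on either strand was found in 14.0% of all promoters and in 2 of the 11 (Plin2 and Plin5). The direct repeat of AGGTCA with 1 base between its copies, the form bound by PPAR-alpha with its partner RXR, was in 0.0335% of all promoters and in 0 of the 11, and the E-box CACGTG was in 6.02% and in 0 of the 11. GGAATG on either strand, the core bound by TEAD factors, the partners of YAP, was in 12.6% of all promoters and in 1 of the 11 (Cidec). A match is a description of letters and no match says only that these letters are not in this window.

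Cidea encodes a droplet fusion protein known from brown adipose tissue and from fatty liver, and it had the fewest reads of the 10. Normalized counts were 43.7, 22.9, 33.4 and 15.6 in Brap LKO livers 1 to 4, and 3.42, 23.4, 142 and 1.96 in Brap F/F livers 1 to 4. Brap F/F replicate 3 was far above all other livers, and Brap F/F replicates 1 and 4, with 3 and 2 reads, were far below them. The ratio of replicate 3 to replicate 4 of the Brap F/F group was 72.3 (exact 95% interval 19.6 to 603, counting error only). Between the groups the log2 fold change was 0.94 (95% confidence interval of -1.46 to 3.33, adjusted p = 0.691 in limma, exact permutation p = 0.486). Its sign depended on the method, since edgeR gave -0.54 and DESeq2 gave -0.56, so no direction can be given. In limma it was 0.17 without Brap F/F replicate 4, 0.36 without replicate 1 and 2.03 without replicate 3. Cidea lies on the plus strand of chromosome 18, from 67343604 to 67367785.

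Cideb, the CIDE gene of hepatocytes, whose protein takes part in loading very low-density lipoprotein with lipid, was the steadiest of the 3. Normalized counts were 6065, 6642, 6425 and 5242 in Brap LKO livers 1 to 4, and 7111, 6967, 6865 and 6337 in Brap F/F livers 1 to 4. The highest 3 livers were all Brap F/F, and Brap F/F replicate 4 lay among the Brap LKO livers. Between the groups the log2 fold change was -0.17 (95% confidence interval -0.36 to 0.03, adjusted p = 0.380 in limma, exact permutation p = 0.0857, the lowest of the 10 genes). Of the exon bases of Cideb (chromosome 14, 55754050 to 55758458, minus strand), 76.3% overlap Nop9 on the opposite strand, and the use of strand in counting is not given in the sources used here, so reads of both genes cannot be told apart.

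Cidec encodes the protein, also called FSP27, that makes large droplets by fusion and accumulates in steatotic liver. Normalized counts were 324, 268, 540 and 397 in Brap LKO livers 1 to 4, against 444, 596, 1624 and 105 in Brap F/F livers 1 to 4. Brap F/F replicate 3 was the highest and replicate 4 the lowest of all 8 livers, so the Brap LKO livers lay inside the Brap F/F range. In limma the log2 fold change came to -0.32 (95% confidence interval -1.84 to 1.20, adjusted p = 0.843), and the exact permutation p was 0.686. Without Brap F/F replicate 3 the fitted value was 0.29 and without replicate 4 it was -1.03, so the sign rested on single livers. Cidec lies on the minus strand of chromosome 6, from 113424634 to 113435760.

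Fitm2, whose product lets droplets bud from the endoplasmic reticulum, stood at 2790, 2803, 3574 and 2824 normalized counts in Brap LKO livers 1 to 4, against 3977, 4189, 5022 and 2307 in Brap F/F livers 1 to 4. In this gene 3 Brap F/F livers stood above every Brap LKO liver and Brap F/F replicate 4 stood below every one. Between the groups the log2 fold change was -0.32 (95% confidence interval -0.80 to 0.15, adjusted p = 0.485 in limma, exact permutation p = 0.314). Without Brap F/F replicate 4 it was -0.55 with an adjusted p of 0.0596 from limma, the lowest adjusted p that any of the 10 genes reached under any setting tried. Fitm2 lies on the minus strand of chromosome 2, from 163466379 to 163472629, and 5.72% of its exon bases overlap 2310001K24Rik on the opposite strand.

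Pnpla2, the gene of ATGL, had a small fitted difference. Normalized counts were 4285, 4211, 5371 and 4029 in Brap LKO livers 1 to 4, against 4351, 6641, 5601 and 4084 in Brap F/F livers 1 to 4. Brap F/F replicates 2 and 3 were the highest livers, and the other Brap F/F livers fell inside the Brap LKO range. The fitted log2 fold change was -0.19 (95% confidence interval -0.55 to 0.17, adjusted p = 0.582 from limma), with an exact permutation p of 0.286. Pnpla2 lies on the plus strand of chromosome 7, from 141455198 to 141460743.

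G0s2, whose product binds ATGL and blocks its lipase activity, varied more. Normalized counts were 2972, 5305, 6676 and 4244 in Brap LKO livers 1 to 4, against 11218, 8704, 8467 and 3029 in Brap F/F livers 1 to 4. Once more 3 Brap F/F livers stood above all Brap LKO livers, and Brap F/F replicate 4 lay at the bottom beside Brap LKO replicate 1. In limma the log2 fold change came to -0.62 (95% confidence interval -1.50 to 0.26, adjusted p = 0.464), and the exact permutation p was 0.257. G0s2 lies on the minus strand of chromosome 1, from 193272161 to 193273217.

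**Figure D2:**
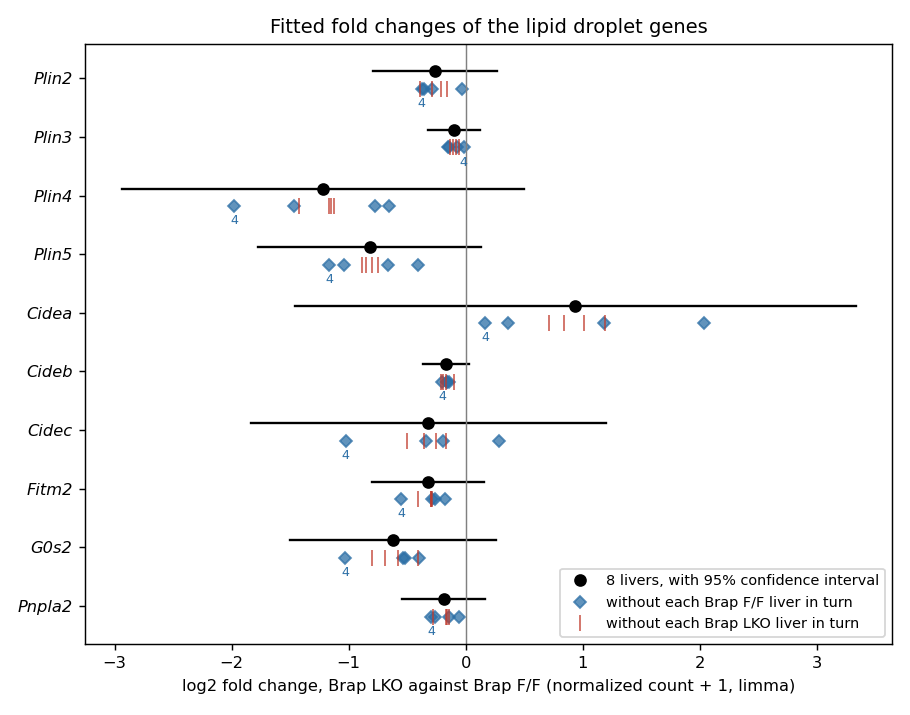
Fitted log2 fold change of each lipid droplet gene, Brap LKO against Brap F/F, over all 8 livers (black points, bars the 95% confidence interval from limma) and with each Brap F/F liver (blue diamonds, 4 marks replicate 4) or Brap LKO liver (red ticks) left out in turn. Every interval spans 0, and leaving out 1 Brap F/F liver moved Plin4 from -1.22 to between -1.98 and -0.66 and G0s2 from -0.62 to between -1.03 and -0.40.

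Because G0S2 acts on ATGL, the ratio of the RNAs of G0s2 and Pnpla2 within a liver was compared, which does not depend on how livers are scaled. The log2 ratio was -0.53, 0.33, 0.31 and 0.08 in Brap LKO livers 1 to 4, and 1.37, 0.39, 0.60 and -0.43 in Brap F/F livers 1 to 4. The ratio was highest in Brap F/F replicate 1, and the lowest Brap LKO and the lowest Brap F/F liver lay close together. Group means were 0.049 ± 0.402 (SD, n = 4) for Brap LKO and 0.480 ± 0.739 (SD, n = 4) for Brap F/F, a difference of -0.43 (two-sided exact permutation test, p = 0.314). Without Brap F/F replicate 4 the difference was -0.74 and the exact permutation p was 0.0286, the smallest that 4 livers against 3 allow, in 35 arrangements. Which side of 0.05 this p fell on thus depended on that 1 control liver. It had the lowest ratio of the Brap F/F livers, so leaving it out widens the difference by construction.

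**Figure D3:**
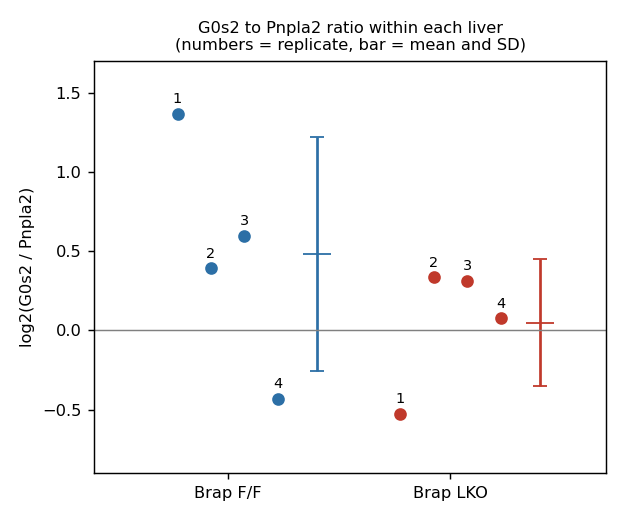
Log2 ratio of the normalized counts of G0s2 and Pnpla2 in each liver, with the replicate number at each point and the mean and SD of each group beside its points. The Brap F/F livers spread from -0.43 to 1.37 and the Brap LKO livers from -0.53 to 0.33.

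Levels between genes were compared as normalized counts per kilobase of the transcript with the longest coding sequence, as means of all 8 livers. Plin2 (7649 per kilobase), G0s2 (7264) and Cideb (5327) were the highest. Pnpla2 (1837) and Plin5 (1294) followed, and Fitm2, Cidec, Plin4 and Plin3 lay between 866 and 342. Cidea was lowest, at 32.1 per kilobase. The order at the top depends on the length used, since over all annotated exon bases G0s2 came first (7264), then Cideb (4339) and Plin2 (4112).

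The livers of the Brap F/F group differed from each other more than the Brap LKO livers did in 9 of the 10 genes, Cideb being the exception, by the SD of log2(normalized count + 1). The Brap F/F SD was the larger one in 64.0% of all genes tested. In the Brap F/F group the SD was 2.56 for Cidea, 1.86 for Plin4, 1.63 for Cidec, 1.04 for Plin5 and 0.836 for G0s2, where the median of all genes tested was 0.219. In all, 0.0977% of the genes tested had a larger SD in that group than Cidea, 0.339% than Plin4, 0.703% than Cidec and 3.14% than Plin5. At the other end, Cideb had an SD of 0.0729 there, and Plin3 had 0.191, below the median. In the Brap LKO group the SDs of the 10 genes ran from 0.0924 for Plin3 to 0.623 for Cidea, with a median over all genes of 0.170. These shares describe how wide the controls spread and are no test.

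**Figure D4:**
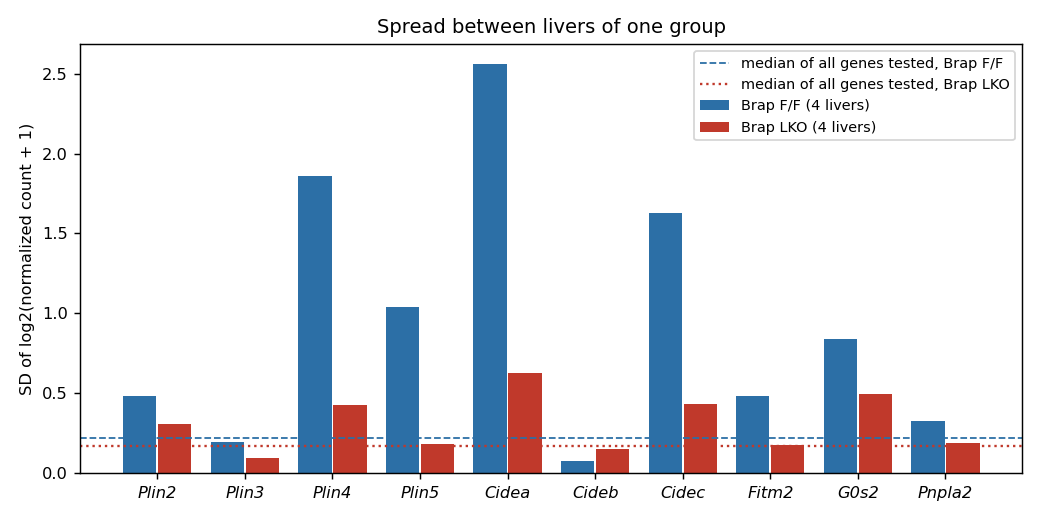
SD of log2(normalized count + 1) over the 4 livers of each group for each lipid droplet gene (blue, Brap F/F; red, Brap LKO), with lines at the median SD of all 15352 genes tested. Bars for Plin4, Plin5, Cidea and Cidec in the Brap F/F group stand at 1.04 or more, and Cideb is the only gene whose Brap LKO bar is the taller one.

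The same Brap F/F livers were high or low in many of the 10 genes. Replicate 4 was the lowest Brap F/F liver in 9 of the 10 genes, as it was in 26.0% of all genes tested, and replicate 2 or 3 was the highest in 6 of the 10, against 48.8% of all genes tested. Plin4, Plin5 and Pnpla2 ordered the Brap F/F livers in the same way (2, 3, 1, 4), as did Cidea and Cidec together with Fitm2 (3, 2, 1, 4) and Cideb with G0s2 (1, 2, 3, 4). In the Brap LKO group replicate 3 was the highest liver in 6 of the 10. When Brap F/F replicate 4 was left out, the log2 fold change was -1.98 for Plin4 (adjusted p = 0.104), -1.16 for Plin5 (0.149), -1.03 for G0s2 (0.0840) and -0.55 for Fitm2 (0.0596), all from limma, and 0 of the 10 passed the threshold (1.51% of all genes tested in that fit). At an unadjusted p under 0.05 the number was 5 (19.3% of all genes tested), and under an adjusted p of 0.1 it was 2, Fitm2 and G0s2 (4.25% of all genes tested). Where replicate 4 was the lowest Brap F/F liver, leaving it out lowers the fitted value by construction, so these counts are no test. Leaving out the Brap F/F liver with the highest level, or the next highest, instead made some of the fitted differences smaller. Without replicate 2 the value was -0.66 for Plin4, -0.41 for Plin5 and -0.060 for Pnpla2, without replicate 3 it was -0.77 for Plin4 and -0.18 for Fitm2, and without replicate 1 it was -0.40 for G0s2. Of the Brap LKO livers, leaving out replicate 1 moved G0s2 to -0.41 and leaving out replicate 4 moved Cideb to -0.10.

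Markers of other cell types also differed between these livers. Summed normalized counts of 13 macrophage markers were 6931, 6872, 6344 and 9159 in Brap F/F livers 1 to 4 and 6500 to 11353 in the Brap LKO livers, and 12 of the 13 were fitted higher in Brap LKO, with Gpnmb past the threshold. The sum of 8 cholangiocyte markers was 1666, 1294, 1140 and 2171 in Brap F/F livers 1 to 4 and 1941 to 3792 in the Brap LKO livers, with all 8 fitted higher and Cftr past the threshold. Gpnmb (limma adjusted p = 0.0480) and Cftr had few reads in the Brap F/F livers, 3 to 12 and 0 to 2. Brap F/F replicate 4 was thus the Brap F/F liver with the highest sums of both lists, which share Spp1 (1125 normalized counts in that liver). It was not the highest Brap F/F liver for the next 3 lists. Its sums there were 5612 for stellate cell, 6276 for sinusoidal endothelial and 67.7 for lymphocyte markers. Stellate cell markers were fitted higher in 7 of 9, with Pdgfrb past the threshold and sums of 7008 to 10609 in Brap LKO and 4591 to 8831 in Brap F/F livers. All 7 sinusoidal endothelial and all 7 lymphocyte markers were fitted higher with 0 past the threshold, and their sums were 7030 to 9821 and 69.8 to 160 in Brap LKO livers against 5970 to 9131 and 67.1 to 95.8 in Brap F/F livers. Of 11 hepatocyte markers 8 were fitted lower with 0 past the threshold. Alb, the most abundant hepatocyte marker, ranged from 1438250 to 2146523 in the Brap LKO livers and from 1933909 to 3058028 in the Brap F/F livers. The part of these markers in the values of the lipid droplet genes was not tested. Of 9 adipocyte markers 4 had enough reads to be tested and 0 passed the threshold. Plin1 had at most 1 read in any liver and Adipoq at most 4 with 0 in 6 livers, Retn had at most 3, Lep and Ucp1 were not analysed here, and the sum of the list was mostly Car3, which liver also expresses. Adipoq, Retn and Car3 were each highest in Brap F/F replicate 3, where Cidea and Cidec were highest too. Other markers of the list went another way. Fabp4 was the lowest of the Brap F/F livers there (166.1 normalized counts, against 166.8 in replicate 4). Adrb3 was highest in Brap F/F replicate 4 (359, against 184 in replicate 3). The part of these markers in the Cidea and Cidec values was not tested.

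Genes around the 10 in the same pathways were taken from 5 lists, and of their 52 tested genes 0 passed the threshold of limma. Of 10 further droplet coat and biogenesis genes, 7 were fitted lower. The 2 with the smallest p were Bscl2, which encodes seipin, the protein that shapes the neck of budding droplets (log2 fold change -0.21, adjusted p = 0.250), and Hsd17b11, a droplet-bound dehydrogenase (-0.35, adjusted p = 0.303, both from limma). Of 10 further lipolysis genes, 9 were fitted lower, led by Abhd6 (-0.64, adjusted p = 0.296) and Mgll (-0.33, adjusted p = 0.380, both from limma), which both encode monoacylglycerol lipases. Abhd5, whose product activates ATGL, ranged from 651 to 756 normalized counts in Brap LKO and from 664 to 801 in Brap F/F livers, and its log2 fold change of -0.07 had an adjusted p of 0.673 in limma.

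Of 12 triglyceride synthesis genes, 10 were fitted lower, among them Agpat3, an acyltransferase of phosphatidic acid synthesis (log2 fold change -0.25, adjusted p = 0.162 from limma). Mogat2, an acyltransferase that makes diacylglycerol from monoacylglycerol, went the other way. Its normalized counts were 31.9, 32.3, 20.2 and 32.2 in Brap LKO livers 1 to 4 and 10.3, 2.03, 3.15 and 13.7 in Brap F/F livers 1 to 4, where the lowest 2 values stand for 2 and 3 reads. No Brap F/F liver reached the lowest Brap LKO liver, and the log2 fold change of 2.13 missed the threshold in limma (adjusted p = 0.0934). It passed with DESeq2 (adjusted p = 0.00387), 1 surrogate variable (0.0122), arrayWeights (0.0325) and the same total per liver (0.0485), as well as without Brap F/F replicate 4 (0.0433), and over all settings its adjusted p reached 0.254. Brap F/F replicates 2 and 3, which were highest for Plin4 and Plin5, were lowest for Mogat2.

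Among 14 fasting genes and PPAR-alpha targets 13 were fitted lower, with a median of -0.36 on the log2 scale and 0 past the threshold. They did not all move alike. Cpt1a (-0.0058, adjusted p = 0.984) and Ppara (-0.027, adjusted p = 0.921) hardly differed. Pdk4 was the gene fitted higher (0.33, adjusted p = 0.705, all from limma). Angptl4, a secreted inhibitor of lipoprotein lipase, ranged from 4648 to 6229 normalized counts in Brap LKO and from 6574 to 8067 in Brap F/F livers, which is -0.34 on the log2 scale, with an adjusted p of 0.181 in limma. Acadm, which encodes medium-chain acyl-CoA dehydrogenase, was fitted at -0.38 on the log2 scale (limma adjusted p = 0.311). Replicate 4 was the lowest Brap F/F liver in 12 of these 14 genes. Cyp4a14, a fatty acid hydroxylase and a strongly induced PPAR-alpha target, was chosen after its values were seen, and had 1323, 2007, 3462 and 3965 normalized counts in Brap LKO livers 1 to 4 and 9235, 45700, 31815 and 707 in Brap F/F livers 1 to 4. As in Plin4, replicates 2 and 3 of the Brap F/F group were far above the Brap LKO livers and replicate 4 was below them. Without Brap F/F replicate 4, 9 of the 52 genes of the 5 lists passed the threshold of limma (1.51% of all genes tested in that fit), namely Lpl, Mogat2 (both higher in Brap LKO), Cyp4a10, Cyp4a14, Agpat2, Vnn1, Abhd6, Acot1 and Acadm (all lower). Replicate 4 was the lowest Brap F/F liver in each of the lower genes and the highest in Lpl and Mogat2. Leaving it out therefore widens these differences by construction, and the count is no test.

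Of 7 tested genes linked to PPAR-gamma in fatty liver, 4 were fitted lower and 0 passed the threshold. Lpl, which encodes lipoprotein lipase, had 683, 732, 602 and 883 normalized counts in Brap LKO livers 1 to 4 and 251, 345, 288 and 548 in Brap F/F livers 1 to 4. Every Brap LKO liver stood above every Brap F/F liver, and the log2 fold change was 1.07 (adjusted p = 0.0709 from limma). It passed the threshold with DESeq2 (adjusted p = 0.00175), arrayWeights (0.0237), the replicate block (0.0237), the same total per liver (0.0281), 1 surrogate variable (0.0292), the animal series as a covariate (0.0388) and without Brap F/F replicate 4 (0.0117), and over all settings its adjusted p reached 0.199. Pck1, the gene of the gluconeogenic enzyme phosphoenolpyruvate carboxykinase and the other gene of this list with the smallest p, was fitted at -0.44 on the log2 scale (limma adjusted p = 0.352). Pparg itself and Cd36, a fatty acid transporter, were chosen after their values were seen. Pparg had 220 to 292 normalized counts in Brap LKO and 302, 340, 713 and 156 in Brap F/F livers 1 to 4. Cd36 had 1376 to 2164 in Brap LKO and 1498, 2805, 5078 and 403 in Brap F/F livers 1 to 4. Both genes were highest in Brap F/F replicate 3 and lowest in Brap F/F replicate 4, as Cidec and Cidea were.

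**Figure D5:**
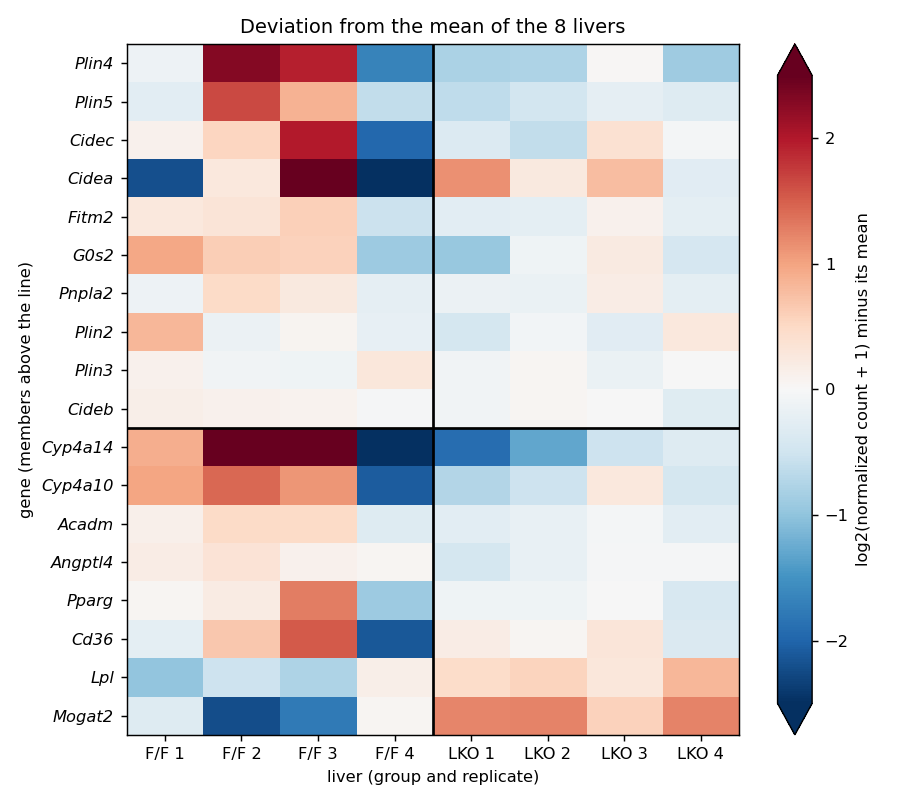
Deviation of log2(normalized count + 1) from its mean over the 8 livers (colour, ends of the scale include values beyond it) for the 10 lipid droplet genes above the line and 8 genes of the related lists, chosen after their values were seen, below it. Columns are livers, with Brap F/F to the left of the line and Brap LKO to the right. Brap F/F replicate 4 is the lowest Brap F/F liver in 9 of the 10 rows above the line, and Lpl and Mogat2 are highest there among the Brap F/F livers.

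By the animal numbers of the labels, the mice form a lower series (Brap LKO livers 1 to 3 with Brap F/F liver 1) and a higher series (Brap LKO liver 4 with Brap F/F livers 2 to 4), and with 1 liver on one side of each, no comparison within a series could be tested. In both series 7 of the 10 genes were lower in Brap LKO, with Plin4 at -0.38 and -1.75 (log2 difference, lower and higher series), Plin5 at -0.18 and -0.96 and G0s2 at -1.25 and -0.52. The share of all genes tested that were lower in both was not counted. The 10 genes share these livers, so the count does not show a repeated direction. Plin2 (-1.09 and 0.37), Cidea (2.91 and -0.39) and Pnpla2 (0.08 and -0.41) had opposite signs in the series. With the series as a covariate in limma, 0 of the 10 genes passed the threshold.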

How the data were processed

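RNA of 8 livers was extracted with TRIzol and columns, prepared for sequencing with a NuGEN mRNA kit (Universal Plus) and read from a single end. Per the labels, FastQC, STAR 2.6.0c with mm10 and DESeq2 were used. The counting tool, annotation release and use of strand are not given in the sources used here. The deposited signal is a normalized count, in which the authors divided read numbers by size factors from DESeq2. All values (100%) were whole multiples of the value of 1 read (tolerance 1e-06), so reads were recovered. The authors' second table (mean, log2 fold change and its standard error, fold change or ratio, p-value and adjusted p-value) was not used.

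Replicates are separate mice. The 10 genes and all gene lists were chosen with earlier results of these data known. limma 3.58.1 (R 4.3.3, lmFit and eBayes with trend) was fitted to log2(normalized count + 1) over all 8 livers without covariates, for the 15352 genes with a mean of at least 5, with Benjamini-Hochberg adjustment and a threshold of 0.05. On simulated data made from these livers with 200 changed genes, and with the spread usual for each gene's level, this step was tested before use. The simulation does not show what the step could detect in genes with a wider spread, such as Plin4, Cidea and Cidec. Single genes and the G0s2 to Pnpla2 ratio had two-sided exact permutation tests over 70 arrangements. Because the values are not counts, edgeR 4.0.16 (quasi-likelihood) and DESeq2 1.42.0 on the recovered reads were alternatives, with sva 3.50.0, other pseudocounts (0.5, 5), filters (none, 20), scalings (quantile, same total, TMM), limma without the trend, robust or with arrayWeights, the replicate number or animal series as a covariate, other thresholds (0.1, 0.01), and each liver left out in turn.

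Genes named by rule were the 10 members, in each related list every gene past the threshold and the 2 with the smallest p, for the 3 members with the largest SD over the 8 livers the 3 tested genes with the smallest root mean square difference, and of marker lists the genes at 0 and the most abundant. A gene that this rule names is not reported here. Other genes were chosen after their values were seen. Deviations of same-numbered livers of the groups had low correlations (-0.13, 0.00336, 0.20 and 0.29). Even so, 3 of the 4 Brap LKO livers correlated best with the Brap F/F liver of their own number. Replicate numbers were not taken as pairs in the main fit and were a block in an alternative. Positions and lengths come from GENCODE M21 on mm10, in which 24430 of 24451 genes were found. The 95% interval of the Cidea ratio is exact (binomial) and covers counting error only. Python 3.11.15 with pandas 2.3.3, numpy 2.4.6, scipy 1.17.1 and matplotlib 3.10.9 was used.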

Additional observations from a re-analysis of the deposited data

Results flagged for a closer look

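Dixon's ratio is the gap from a liver to its nearest neighbour over the range of its group. For the lipid droplet genes it was taken on normalized counts, not on the log2 scale used elsewhere, and for G0s2 to Pnpla2 on the log2 ratio. It set 3 values apart among 22 groups of 4 livers. Chance flags about 1 in 20 groups, and so 1.1 of 22, only if values are normally distributed and groups independent. Counts can be skewed and the genes share the same livers, so that number is a rough guide. For Plin4, Brap LKO liver 3 stood at 1384 normalized counts, with the next liver of that group at 801. The same liver stood at 3574 for Fitm2, with the next at 2824. For Cidea, Brap F/F liver 3 stood at 142, with the next liver of that group at 23.4.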

How the results depend on the processing

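Over 23 other settings, 0 of the 230 fitted values of the 10 lipid droplet genes passed the threshold, the lowest adjusted p being 0.0596 (Fitm2 without Brap F/F replicate 4, limma), and 225 kept the sign reported. Some values shrank under other scalings, with Cideb at -0.0094 and Pnpla2 at -0.032 with the same total per liver and Cideb at -0.052 after quantile normalization. The signs that reversed were those of Plin3 with the same total per liver (0.060), a scaling that moved the median of all genes to 0.15, of Cidea with edgeR (-0.54) and DESeq2 (-0.56), and of Cidec with 1 surrogate variable (0.034) and without Brap F/F replicate 3 (0.29, within a range of -1.03 to 0.29 with 1 liver left out). The cause of these reversals was not tested.

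The number of all genes past the threshold, 102 higher and 16 lower in Brap LKO, became 62 higher after quantile normalization, 459 higher with the same total, 9 lower with a minimum mean of 20, 185 and 39 with arrayWeights, 490 and 245 with 1 surrogate variable, 455 and 170 with DESeq2, 283 and 64 at an adjusted p under 0.1, and 10 and 3 under 0.01. Leaving out 1 liver gave 11 to 178 higher and 4 to 54 lower genes. Of the 52 genes of the related lists, 0 passed the threshold, but 2 did with the same total, 2 with arrayWeights, 1 with the replicate block, 1 with the animal series, 2 with 1 surrogate variable, 3 with DESeq2 and 2 at an adjusted p under 0.1, and 0 to 9 with 1 liver left out, the 9 being without Brap F/F replicate 4. The difference in the log2 ratio of G0s2 to Pnpla2, -0.43, lay between -0.74 and -0.14 with 1 liver left out, and only without Brap F/F replicate 4 was its exact permutation p 0.0286. With the replicate number as a block, 0 of the 10 lipid droplet genes passed the threshold, with 80 higher and 15 lower genes in all. Of the 4 Brap LKO livers, 3 correlated best with the Brap F/F liver of their own number. With 2 to 3 reads of Cidea in some livers, depth limits that gene. In 9 of the 10 genes the Brap F/F livers spread more than the Brap LKO livers, and in Cideb the Brap LKO livers did.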

Other observations

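For the 3 lipid droplet genes with the largest SD over the 8 livers, the genes with the most similar profile were sought, by the root mean square difference between mean-centred log2(normalized count + 1) over the 8 livers. For Plin4 they included Slc22a27, an organic anion transporter gene (difference 0.189), and Acss3, which encodes a mitochondrial acyl-CoA synthetase (0.533). Slc22a27 had 3.64, 3.40, 8.09 and 5.20 normalized counts in Brap LKO livers 1 to 4 and 6.84, 50.9, 36.8 and 1.96 in Brap F/F livers 1 to 4, so it shared the high replicates 2 and 3 and the low replicate 4 of Plin4 at a level of few reads.

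For Cidec the closest were Ctse, which encodes cathepsin E (0.205), Gal3st1 (0.334) and Gm7049 (0.339). Ctse ranged from 10.2 to 19.2 in the Brap LKO livers and stood at 19.4, 31.5, 67.3 and 4.91 in Brap F/F livers 1 to 4. For Cidea they were Cfd, the gene of adipsin and an adipocyte marker (0.617), Tcf24 (0.760) and Slc2a4, the gene of the insulin-dependent glucose transporter GLUT4 (0.795). Cfd had 186, 63.7, 106 and 33.3 normalized counts in Brap LKO livers 1 to 4 and 19.4, 181, 696 and 4.91 in Brap F/F livers 1 to 4, and Slc2a4 had 83.0 in Brap F/F replicate 3 and 1.96 in replicate 4. Of the other adipocyte markers, Adipoq (4 reads), Retn (3 reads) and Car3 (166183 normalized counts) were also highest in Brap F/F replicate 3. Plin1 had 0 reads there, and Fabp4 was the lowest of the Brap F/F livers there (166.1 normalized counts, against 166.8 in replicate 4). Adrb3 was highest in Brap F/F replicate 4 (359, against 184 in replicate 3). The part of these markers in the Cidea values was not tested. None of the genes named here for a similar profile passed the threshold of limma between the groups, and the lowest adjusted p among them was 0.462 for Slc22a27. Adipoq, Retn and Plin1 had too few reads to be tested. No relation among these genes was tested.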
